A study of Danio rerio with 14 samples.

Results

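Ventricles of adult zebrafish that carried the disease variant p.S358L of human TMEM43 were compared with ventricles that carried wild-type human TMEM43. The comparison took every gene of the deposited table in 8 of the 14 libraries of the study, 4 from TMEM43-S358L (replicates 1 to 4) and 4 from TMEM43-WT (replicates 1, 4, 5 and 6). In both lines the human protein was fused to eGFP and driven in cardiomyocytes by the myl7 promoter, on the strain the labels give as TL1, and each line goes back to Tol2 insertions at random sites. Each genotype was thus 1 line, so that the variant, the insertion sites and the founder background cannot be told apart. A library was made from a pool of up to 7 ventricles. The remaining 6 libraries, 3 from TMEM43-P111L (the same transgene with the variant p.P111L) and 3 from non-transgenic fish (NTG), entered the fit to estimate the spread and serve as reference levels.

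TMEM43, also called LUMA, is a protein of the nuclear envelope that spans the membrane several times. The p.S358L variant of the human gene causes arrhythmogenic cardiomyopathy, a heart muscle disease with loss of cardiomyocytes, fibrous and fatty replacement of the myocardium and ventricular arrhythmia. Comparing the mutant with the wild-type transgene asks how ventricles with the variant differ from ventricles with extra wild-type TMEM43. The zebrafish heart has a single ventricle, and its wall holds endocardium, epicardium, fibroblasts and resident macrophages beside the cardiomyocytes, all of which contribute RNA to a pool. In such bulk RNA, fewer cells of a type and less RNA per cell cannot be told apart.

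The age of the fish differed between the groups. According to the labels, TMEM43-S358L replicates 1, 2 and 3 were 5 months old and replicate 4 was 19 months old, whereas TMEM43-WT replicate 1 was 5 months old and replicates 4, 5 and 6 were 18, 20 and 19 months old. NTG and TMEM43-P111L pools likewise held both ages, from 5 to 21 and from 5 to 20 months. Total reads per library ran from 24508198 to 25576803 in TMEM43-S358L and from 20977823 to 22326903 in TMEM43-WT. Endogenous tmem43, the zebrafish ortholog, was at 17.4, 10.2, 10.8 and 13.2 CPM (reads of the gene scaled to a common library total, with TMM factors) in TMEM43-S358L replicates 1 to 4 and at 17.6, 16.6, 16.7 and 10.9 CPM in TMEM43-WT replicates 1, 4, 5 and 6. The ranges overlapped, with a log2 fold change of -0.26 ± 0.27 (SE, adjusted p = 0.779). The feature counted lies on a scaffold outside the chromosomes and has 474 bases of exon. That is shorter than the coding sequence of the protein the study describes, so these values cover only part of the gene. The human transgene was not a feature of the table, so its level was not measured here. The study describes the S358L transgene as expressed below the wild-type transgene, so that the variant and the dose of the transgene cannot be told apart in any result of this comparison. The gene whose promoter drives it, myl7, the atrial and ventricular regulatory light chain, was at 10340 to 14620 CPM in TMEM43-S358L and 11200 to 16410 CPM in TMEM43-WT (adjusted p = 0.845). The summed level of 8 markers listed for ventricular cardiomyocytes was 82500 to 102000 CPM in TMEM43-S358L and 72300 to 90000 CPM in TMEM43-WT, with all 8 detected. These markers include myl7, so the sum is not specific to the ventricle.

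The leading axis of variation separated the genotypes. In a principal component analysis of the 500 most variable genes, PC1 held 40.1% of the variance, and the TMEM43-S358L libraries lay at 18.9, 12, 11.7 and 8.1 against -8.64, -14.2, -13.8 and -14.1 for TMEM43-WT. The means differed by 25.4 (12.7 ± 4.53 against -12.7 ± 2.71, SD, n = 4 each, exact permutation test, two-sided p = 0.0286, the smallest p that 70 arrangements allow). Divided by age instead, the 5-month libraries lay 17 above the older ones on PC1 (exact permutation p = 0.0571). TMEM43-WT replicate 1, the only 5-month library of its group, stood apart at -20.1 on PC2, which held 22.4% of the variance.

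**Figure D1:**
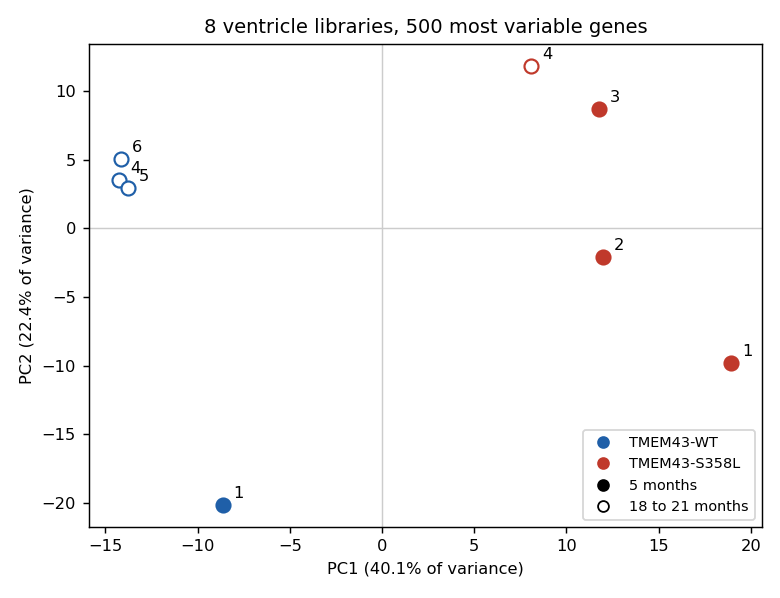
Principal components of the 8 libraries (500 most variable genes, variance stabilized counts). Each point is 1 library with its replicate number, color gives the genotype and a filled point an age of 5 months. The TMEM43-S358L libraries sit between 8.1 and 18.9 on PC1 and the TMEM43-WT libraries between -14.2 and -8.64.

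Of 17437 genes tested with edgeR, 282 were differentially expressed (DEGs, with an adjusted p below 0.05 and a log2 fold change of 0.05 or more in size), which is 1.62% of the genes tested. In TMEM43-S358L 115 genes were higher (0.66% of the genes tested) and 167 were lower (0.958%). A log2 fold change of 1 or more in size was found for 259 of the 282 DEGs. With 4 libraries in a group, small changes pass the test less often, so these sizes describe the called genes only. The share of all tested genes with such a change is not given here. Where a line had next to no counts, the size rests on few reads. The CPM of the groups did not overlap for 279 of the 282 DEGs, against 8.8% of all tested genes. Long non-coding RNAs made up 48 of the DEGs, 6.86% of the 700 tested, compared with 1.4% of the 16566 protein-coding genes tested. The number of DEGs fell whenever a single library was left out, which also leaves fewer libraries to test. It was 172, 146, 161 and 228 without TMEM43-S358L replicates 1, 2, 3 and 4. Without TMEM43-WT replicates 1, 4, 5 and 6 it was 215, 158, 148 and 172. Of the 282 DEGs, 106 were called whichever of the 8 libraries was left out. DESeq2 called 672 genes on the same counts and shared 281 of the 282. The overlap was smaller elsewhere, with 200 of the 282 called by limma-voom. A fit of the 8 libraries alone, in which some of the 282 were filtered out, called 219 of them. That fit with age group as a covariate called 212 genes, 144 of them among the 282.

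Among the genes of the contractile apparatus, the outstanding difference was in actn2b, which encodes alpha-actinin-2, the protein that anchors and crosslinks thin filaments in the Z-disc. It lies on chromosome 17 of GRCz11 (20122019 to 20143916). Its level was 623, 869, 1063 and 714 CPM in TMEM43-S358L replicates 1 to 4 and 3937, 3561, 4726 and 3201 CPM in TMEM43-WT replicates 1, 4, 5 and 6. Every TMEM43-S358L library thus lay well below every TMEM43-WT library, at both ages, with a log2 fold change of -2.24 ± 0.24 (SE, adjusted p = 0.000139). NTG libraries were at 803 to 1395 CPM and TMEM43-P111L libraries at 640 to 1093 CPM, so that among the 4 groups TMEM43-WT was the one that stood out. The adjusted p of actn2b stayed between 0.000285 and 0.00134 when each library was left out. The paralog actn2a, named after its values were seen, was at 0.536 to 1.56 CPM in TMEM43-S358L and 0.329 to 0.587 CPM in TMEM43-WT (adjusted p = 0.467).

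The remaining genes of the sarcomere lists gave few differences. Those lists do not hold the troponin T gene tnnt2d, a DEG at low counts that is described further below. Only actn2b was called among 35 tested genes of the thin filament and Z-disc, whose median log2 fold change was -0.03 beside 0.003 over all tested genes. Next in the order of p came myoz2a, a calsarcin of the Z-disc, at 8.61 to 17.9 CPM in TMEM43-S358L and 30.2 to 74 CPM in TMEM43-WT, with a log2 fold change of -1.79 (adjusted p = 0.0748). With age group as a covariate myoz2a passed the test (log2 fold change -2.25, adjusted p = 0.0045). The stress gene ankrd1a, which encodes a titin-binding ankyrin repeat protein, was at 0.09 to 3.47 CPM against 5.71 to 6.9 CPM (adjusted p = 0.129), and the Z-disc adaptor gene pdlim5a at 5.81 to 9.33 CPM against 2.22 to 3.29 CPM (adjusted p = 0.149). None of 18 tested genes of cardiac myosins and their binding proteins was called. The smallest p among them belonged to mybphb, a gene of the myosin binding protein H type, at 43.9 to 163 CPM in TMEM43-S358L and 19.7 to 64.6 CPM in TMEM43-WT, so that the groups overlapped (adjusted p = 0.17). Of 28 natriuretic peptide and stress genes none was called, and corin, which encodes the protease that activates natriuretic peptides, was at 45 to 86.1 CPM against 14.3 to 49.8 CPM (adjusted p = 0.2).

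**Figure D2:**
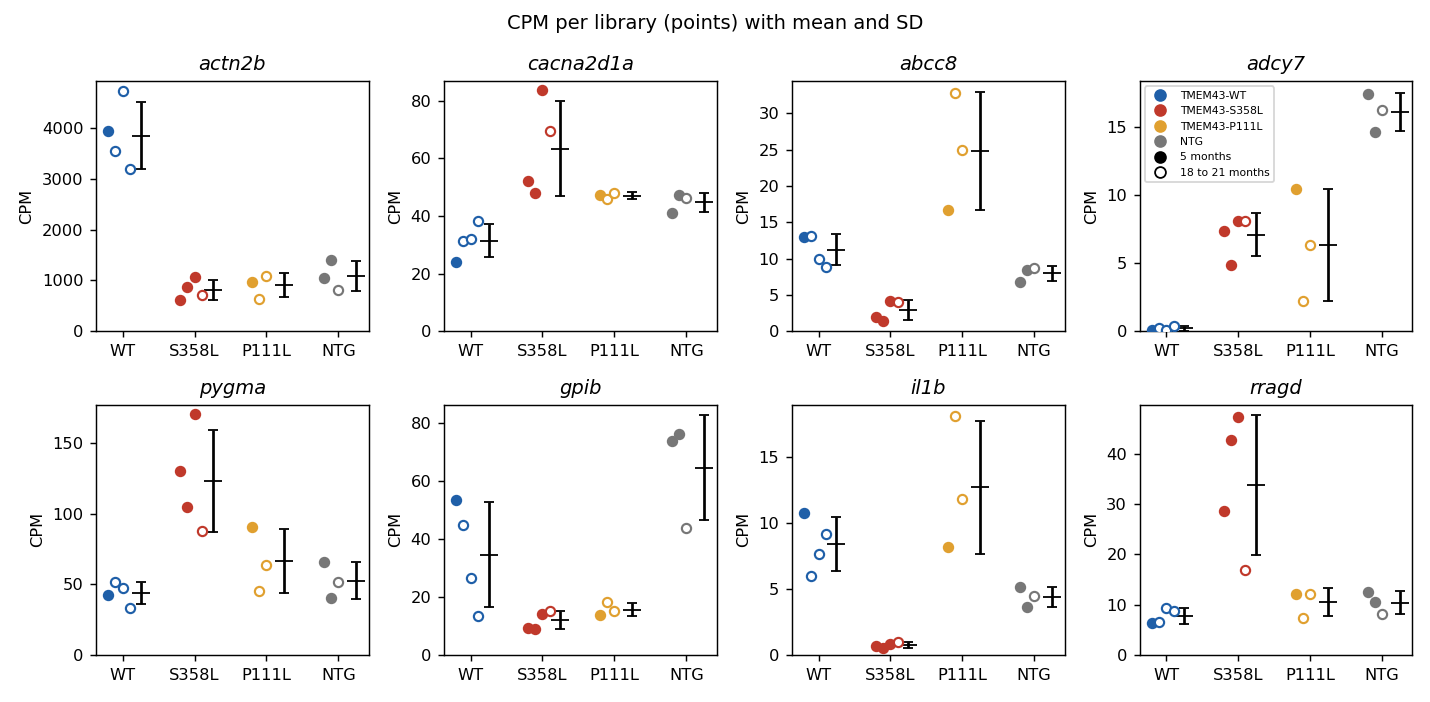
CPM of 8 DEGs in each of the 14 libraries (points, filled for 5 months) with the mean and SD of each group at their right. For actn2b the 4 TMEM43-WT libraries lie at 3201 to 4726 CPM and all other libraries at or below 1395 CPM.

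The lists of calcium handling, of cardiac ion channels (13 genes tested) and of adrenergic and cyclic nucleotide signalling held 3 DEGs. They do not hold the potassium channel subunit gene dpp6a, a DEG described further below. An auxiliary alpha-2/delta subunit of voltage-gated calcium channels, cacna2d1a, was at 52.2, 48, 83.8 and 69.6 CPM in TMEM43-S358L and at 24, 31.3, 32.1 and 38.1 CPM in TMEM43-WT. All TMEM43-S358L libraries lay above all TMEM43-WT libraries (log2 fold change 1.01 ± 0.19, SE, adjusted p = 0.0104), and NTG libraries were at 41 to 47.3 CPM. The regulatory subunit of ATP-sensitive potassium channels encoded by abcc8 was at 1.94, 1.45, 4.13 and 3.97 CPM in TMEM43-S358L and at 13, 13.2, 9.95 and 8.85 CPM in TMEM43-WT, a log2 fold change of -1.97 ± 0.32 (SE, adjusted p = 0.00464). NTG libraries held 6.78 to 8.75 CPM of abcc8, between the lines, and TMEM43-P111L libraries 16.6 to 32.8 CPM. Both genes kept the call whichever library was left out. Its relative abcc9 was at 41.1 to 94.7 CPM against 27.4 to 54 CPM, with overlapping groups (adjusted p = 0.262). Of 32 calcium handling genes tested cacna2d1a was the only one called, with a list median of -0.02. The junctophilin gene jph2, whose product holds sarcoplasmic reticulum to the T-tubule or surface membrane, was at 50.9 to 71.8 CPM in TMEM43-S358L and 27.3 to 44.8 CPM in TMEM43-WT (adjusted p = 0.0724), and the ryanodine receptor gene ryr2b at 133 to 175 CPM against 187 to 271 CPM (adjusted p = 0.158). Neither pair of ranges overlapped, but neither gene passed the test.

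The third of these DEGs, adcy7, encodes a membrane-bound adenylyl cyclase, which makes cyclic AMP. It was at 7.37, 4.84, 8.07 and 8.14 CPM in TMEM43-S358L and at 0.0569, 0.235, 0.0921 and 0.42 CPM in TMEM43-WT. The log2 fold change was 5.05 ± 0.52 (SE, adjusted p = 0.000139), and the call held whichever library was left out. NTG libraries were at 14.7 to 17.5 CPM and TMEM43-P111L libraries at 2.21 to 10.5 CPM, so that TMEM43-WT again was the group that stood apart. None of the other 32 tested genes of adrenergic and cyclic nucleotide signalling was called.

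None of the genes listed for the nuclear envelope proper was called. Among 21 tested genes of the nuclear envelope and of the LINC complex, which couples the nucleus to the cytoskeleton, the median log2 fold change was 0.09 and 1 gene had an unadjusted p under 0.05. That gene was syne1a, a nesprin, at 85.7, 64, 54.7 and 51.2 CPM in TMEM43-S358L and at 36.68, 40.3, 36.4 and 48.9 CPM in TMEM43-WT (log2 fold change 0.66 ± 0.20, SE, adjusted p = 0.131). The B-type lamin gene lmnb1 was at 25.6 to 35 CPM against 15.8 to 28.9 CPM (adjusted p = 0.505). Among 60 genes of nuclear pores and transport 1 was called, the nucleoporin gene pom121, at 13.1 to 16.5 CPM in TMEM43-S358L and 20.3 to 29.9 CPM in TMEM43-WT (log2 fold change -0.80 ± 0.18, SE, adjusted p = 0.0346). The call of pom121 held only without TMEM43-WT replicate 1, at an adjusted p of 0.0258, and was lost without any of the other 7 libraries, at up to 0.115.

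The lists of cell junction components, which include the desmosomal proteins most often mutated in arrhythmogenic cardiomyopathy, held no DEG. None of 14 desmosomal genes, 20 genes of adherens junctions and the area composita and 8 connexin genes was called, and their median log2 fold changes were -0.03, -0.01 and -0.03. The desmocollin gene dsc2l was at 29.9 to 36.3 CPM in TMEM43-S358L and 18.6 to 26.7 CPM in TMEM43-WT, ranges that did not overlap (log2 fold change 0.53, adjusted p = 0.237). Plakoglobin, encoded by jupa, was at 134 to 160 CPM against 114 to 131 CPM (adjusted p = 0.416), alpha-catenin, encoded by ctnna1, at 139 to 179 CPM against 108 to 125 CPM (adjusted p = 0.216), and N-cadherin, encoded by cdh2, at 454 to 598 CPM against 270 to 474 CPM (adjusted p = 0.448). Connexin 43, encoded by cx43, was at 3.75 to 7.4 CPM against 5.85 to 16.1 CPM (adjusted p = 0.344).

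Of the genes that regulate growth, rragd was the only DEG among 70 tested members of the mTOR complexes and their regulators. It encodes a Rag GTPase that recruits mTOR complex 1 to the lysosome when amino acids are present. The level of rragd was 28.55, 42.8, 47.3 and 16.8 CPM in TMEM43-S358L and 6.31, 6.57, 9.25 and 8.81 CPM in TMEM43-WT. The lowest TMEM43-S358L value was that of the 19-month library, and it still lay above all TMEM43-WT libraries (log2 fold change 2.13 ± 0.29, SE, adjusted p = 0.00148). NTG and TMEM43-P111L libraries were at 7.43 to 12.6 CPM. The insulin receptor gene insra was at 96.5 to 131 CPM against 57.2 to 106 CPM (adjusted p = 0.19), and eif4ea, which encodes a cap-binding initiation factor, at 13.7 to 18.9 CPM against 19.5 to 23.3 CPM (adjusted p = 0.202).

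Genes of the translation machinery differed little one by one. Of 102 ribosome biogenesis genes only imp3 was called, which encodes a component of the U3 small nucleolar ribonucleoprotein that processes ribosomal RNA. The level of imp3 was 3.5, 4.39, 3.9 and 2.96 CPM in TMEM43-S358L and 9.61, 7.61, 9.99 and 7.85 CPM in TMEM43-WT (log2 fold change -1.25 ± 0.23, SE, adjusted p = 0.0111, at most 0.0457 when a library was left out). None of 82 cytosolic ribosomal protein genes was called, but all except 1 had a negative log2 fold change, with a median of -0.23 beside 0.003 over all tested genes. For example, rpl10a was at 941 to 1400 CPM in TMEM43-S358L and 1106 to 2109 CPM in TMEM43-WT, with a log2 fold change of -0.39 (adjusted p = 0.538), and rps14 at 1078 to 1560 CPM against 1198 to 2301 CPM (adjusted p = 0.622). The exception was rps8b, at 4.83 to 7.67 CPM against 2.62 to 5.29 CPM (adjusted p = 0.457). In both rpl10a and rps14 the highest of the 8 values was that of TMEM43-WT replicate 1, and the median of the 82 genes was -0.615 between the 5-month libraries and -0.12 between the older libraries.

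The lists of energy metabolism held 2 DEGs, both among the 50 tested genes of glycolysis and gluconeogenesis. They do not hold the mitochondrial carrier gene slc25a51b, a DEG described further below. Muscle glycogen phosphorylase, the enzyme that breaks down glycogen, is encoded by pygma and was at 130, 105, 170 and 87.5 CPM in TMEM43-S358L and at 42.2, 51.5, 47.4 and 33.6 CPM in TMEM43-WT. All TMEM43-S358L libraries were higher than all TMEM43-WT libraries (log2 fold change 1.499 ± 0.25, SE, adjusted p = 0.00587), and NTG libraries held 40.4 to 66.1 CPM. Glucose-6-phosphate isomerase, the second enzyme of glycolysis, is encoded by gpib and was at 9.35, 9.08, 14 and 15.1 CPM in TMEM43-S358L and at 53.4, 44.8, 26.6 and 13.4 CPM in TMEM43-WT. TMEM43-WT replicate 6 thus lay inside the TMEM43-S358L range, and gpib (log2 fold change -1.54 ± 0.35, SE, adjusted p = 0.035) kept its call only without that library, at an adjusted p of 0.00497, and lost it without any of the other 7, at up to 0.116. The other glycogen phosphorylase gene near the threshold, pygb, went the other way, at 33.9 to 45.9 CPM against 69.3 to 79.1 CPM (log2 fold change -0.85, adjusted p = 0.0958), and passed with age group as a covariate (adjusted p = 0.016). None of 36 genes of mitochondrial complex I, 32 of complexes II to V, 33 of the citrate cycle and pyruvate dehydrogenase and 49 of fatty acid uptake and oxidation was called, with medians between -0.04 and 0.06. Citrate synthase, encoded by cs, was at 467 to 609 CPM in TMEM43-S358L and 640 to 736 CPM in TMEM43-WT (adjusted p = 0.378), and the mitochondrial trifunctional protein gene hadhaa at 305 to 526 CPM against 201 to 352 CPM (adjusted p = 0.104).

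The lists of matrix genes held 3 DEGs, none of which kept the call in the fit with age group as a covariate. They were 1 of 28 tested collagen genes (3.57%), 1 of 62 matrix and basement membrane genes (1.61%) and 1 of 38 matrix proteases and inhibitors (2.63%). The share over all tested genes was 1.62%. The median log2 fold changes of the latter 2 lists were 0.21 and 0.133, and 0.153 and 0.075 with age as a covariate. The basement membrane collagen gene col18a1b was at 46.8, 48.1, 54.3 and 36.3 CPM in TMEM43-S358L and 25.2, 23.9, 14.2 and 20.6 CPM in TMEM43-WT (log2 fold change 1.15 ± 0.26, SE, adjusted p = 0.0314, and 0.071 with age as a covariate). It was called without TMEM43-S358L replicate 4 or TMEM43-WT replicate 1 and not without any of the other 6 libraries, at up to 0.111. The laminin alpha-5 gene lama5 was at 97.8, 85.7, 76.1 and 90.7 CPM against 58.2, 62, 47.5 and 38.8 CPM (log2 fold change 0.76 ± 0.17, SE, adjusted p = 0.027), and lost the call without TMEM43-S358L replicate 1, 2 or 4 or TMEM43-WT replicate 5 or 6 (up to 0.101). The metalloprotease gene adam12 on chromosome 12 was at 0.824 to 1.3 CPM against 0.0839 to 0.376 CPM (log2 fold change 2.31 ± 0.48, SE, adjusted p = 0.0206), and lost the call without TMEM43-S358L replicate 2 or 3 or TMEM43-WT replicate 5 or 6 (up to 0.0821). Over 28 tested collagen genes the median log2 fold change was 0.44, with 20 of them positive, and it was 0.26 with age as a covariate. A fibril-associated collagen gene, col12a1b, was at 2.24 to 8.28 CPM against 1.01 to 2.22 CPM (adjusted p = 0.0841), whereas col8a1b had the opposite sign, at 0.536 to 1 CPM against 0.8287 to 4.72 CPM (adjusted p = 0.115). The summed level of 6 fibroblast markers ran from 1400 to 2300 CPM in TMEM43-S358L and from 845 to 1770 CPM in TMEM43-WT. The collagen genes col1a1a, col1a2 and col5a1 are among these markers, so the sum is not a separate measure of fibroblasts. Of the markers that are not collagens, pdgfra was at 6.32 to 14 CPM against 10.8 to 23.5 CPM (log2 fold change -1.04). The log2 fold changes of lum and dcn were -0.07 and 0.15. The part of fibroblasts in these values was not tested. Among 55 genes of TGF-beta and BMP signalling none was called. The smallest p there belonged to bmp7b, at 0.314 to 0.744 CPM against 1.89 to 3.13 CPM (adjusted p = 0.0566). An activin subunit gene, inhbab, was at 0.506 to 3.21 CPM against 3.94 to 13.2 CPM (adjusted p = 0.065), and passed with age as a covariate (adjusted p = 0.00195).

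In the Hippo list 1 of 28 tested genes was called, amotl2b, whose angiomotin-like product sits at cell junctions. It was at 34.9, 63.4, 49.2 and 47 CPM in TMEM43-S358L and 17.8, 15.8, 10.2 and 23.5 CPM in TMEM43-WT (log2 fold change 1.53 ± 0.36, SE, adjusted p = 0.0456), a call that was lost whichever of the 8 libraries was left out (0.0549 to 0.145). The histone deacetylase gene hdac9b, the only DEG among 73 histone and chromatin regulators, was at 51.5 to 56.3 CPM against 32 to 36.8 CPM, and its call was lost in the same way (log2 fold change 0.66 ± 0.15, SE, adjusted p = 0.0359, and 0.0613 to 0.126 with a library left out). Among 60 cell cycle genes none was called, 51 had a positive log2 fold change and the median was 0.415, which became 0.037 with age as a covariate.

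A cytokine gene and a chemokine gene of the inflammatory list were lower in TMEM43-S358L. The cytokine gene il1b, interleukin-1 beta, was at 0.659, 0.521, 0.807 and 1.01 CPM in TMEM43-S358L and at 10.8, 6.01, 7.69 and 9.15 CPM in TMEM43-WT. The groups were far apart at both ages, with a log2 fold change of -3.48 ± 0.32 (SE, adjusted p = 5.96e-05), and the adjusted p stayed at or below 0.000531 when a library was left out. Reads of il1b were split with another feature in most of the libraries. NTG libraries were at 3.63 to 5.13 CPM and TMEM43-P111L libraries at 8.18 to 18.1 CPM, so that here TMEM43-S358L was the lowest of the 4 groups. The chemokine gene ccl39.3 was not detected in any TMEM43-S358L library and was at 3.64, 5.21, 4.14 and 2.94 CPM in TMEM43-WT, at least 131-fold higher when the TMEM43-S358L libraries together are set at a floor of 3 counts (adjusted p = 0.00349). Of 46 cytokine and chemokine genes tested, these 2 were called, and 13 of the 46 had a positive log2 fold change (median -0.18, also with ccl39.3 at its bound). The list does not hold the chemokine DEGs ccl39.6, ccl39.7 and ccl39.9. Of those, ccl39.6 was higher in TMEM43-S358L (log2 fold change 2.79, adjusted p = 0.000149), while ccl39.7 and ccl39.9 were lower. In the list of antigen processing and interferon genes, psmb12, which encodes a beta subunit of the proteasome, was at 5.52, 2.08, 1.48 and 5.8 CPM against 16, 19.9, 15.3 and 14.1 CPM (log2 fold change -2.13 ± 0.46, SE, adjusted p = 0.03). The call of psmb12 was lost without TMEM43-S358L replicate 2 or 3 or any of the TMEM43-WT libraries (up to 0.0961). The related proteasome subunit genes on the same chromosome psmb8a and psmb10 were at 3.87 to 14.4 CPM against 34.4 to 56.6 CPM (adjusted p = 0.0547) and at 1.53 to 4.48 CPM against 7.22 to 12.2 CPM (adjusted p = 0.108). The chemokine gene cxcl20 had the opposite sign, at 6.46 to 18 CPM against 2.1 to 4.22 CPM (adjusted p = 0.0582).

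Of the markers of neutrophils and of liver, 1 each was called, both lower in TMEM43-S358L. Of 4 tested neutrophil markers, lect2l, a leukocyte chemotaxin-like gene that is also in the complement list, was called, at 0.371 to 1.15 CPM in TMEM43-S358L and 2.39 to 6.25 CPM in TMEM43-WT (log2 fold change -2.55 ± 0.61, SE, adjusted p = 0.0446), and lost the call whichever library was left out (0.0562 to 0.134). The summed level of 5 neutrophil markers was 2.69 to 5.47 CPM in TMEM43-S358L and 7.55 to 56.7 CPM in TMEM43-WT, and that of 7 liver markers 15.8 to 42.7 CPM against 53.4 to 85.1 CPM. Of 5 tested liver markers the vitellogenin gene vtg2 was called, at 0.179 to 0.428 CPM in TMEM43-S358L and 0.839 to 3.22 CPM in TMEM43-WT (adjusted p = 0.0441). Most of the liver sum came from the transferrin gene tfa, which was not called (adjusted p = 0.214). The collagenase gene mmp13a, 1 of the neutrophil markers, was at 40.3 CPM in TMEM43-WT replicate 1 and at 0.538 to 5.73 CPM in the other 7 libraries (adjusted p = 0.127), and the gelatinase gene mmp9 was at 34.1 CPM there and at 0.824 to 7.89 CPM elsewhere (adjusted p = 0.0748). Macrophage markers summed to 296 to 402 CPM in TMEM43-S358L and 376 to 627 CPM in TMEM43-WT, with no marker called. The summed level of 3 B cell markers, none of which passed the filter on low counts, was at or below 0.49 CPM in all 8 libraries. The part of these cells in the differences of il1b and of the chemokine genes was not tested.

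Enzymes that handle xenobiotics and steroids gave 5 DEGs. They were 2 of 40 tested cytochrome P450 genes (5%, list median 0.049) and 3 of 33 conjugating enzyme genes (9.09%). The share over all tested genes was 1.62%, and the lists as such were not tested. The cytochrome P450 gene cyp2x7 had 2 counts in total over the 4 TMEM43-S358L libraries, both in replicate 4, and was at 3.58, 3.85, 2.81 and 3.23 CPM in TMEM43-WT, a ratio of 166 (exact Poisson interval 45.6 to 1380 at a confidence level of 0.95, adjusted p = 3.45e-05). The level was 0.733 to 1.13 CPM in NTG and the TMEM43-P111L libraries were at 3.61 to 3.93 CPM. Another P450 gene, cyp2p7, rose, from 1.36, 1.41, 1.57 and 1.85 CPM in TMEM43-WT to 12.1, 8.26, 4.39 and 6.04 CPM in TMEM43-S358L (log2 fold change 2.31 ± 0.32, SE, adjusted p = 0.00148). Both P450 genes kept the call whichever library was left out, and reads of cyp2p7 were split with other features in all libraries. Among 33 conjugating enzymes 3 were called, all lower, and the list median was -0.435. The neighboring sulfotransferase genes sult2st1 and sult2st2 on chromosome 12 (630295 to 645972 and 648374 to 656401) moved together. The level of sult2st1 was 46.1, 22.6, 18.6 and 62.7 CPM in TMEM43-S358L and 218, 153, 177 and 229 CPM in TMEM43-WT (log2 fold change -2.37 ± 0.47, SE, adjusted p = 0.0224), and that of sult2st2 was 9.76, 4.36, 5.34 and 14.6 CPM against 40.6, 36.4, 40.1 and 48.8 CPM (log2 fold change -2.28 ± 0.43, SE, adjusted p = 0.0133). NTG libraries were at 4.75 to 21.7 CPM for sult2st1 and 1.91 to 8.88 CPM for sult2st2, below all TMEM43-WT libraries. The call of sult2st1 was lost without TMEM43-S358L replicate 2 or 3 or TMEM43-WT replicate 1 or 6 (up to 0.0802), and values of both genes held split reads. The glucuronosyltransferase gene ugt2a6 was at 0.865 to 1.83 CPM against 3.27 to 7.62 CPM (log2 fold change -2.001 ± 0.41, SE, adjusted p = 0.0182), and lost the call without TMEM43-S358L replicate 1, 2 or 3 or TMEM43-WT replicate 1 or 4 (up to 0.0741).

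Among genes of membranes and their repair, capn1b, which encodes the protease calpain-1, was at 2.27, 1.53, 2.15 and 2.49 CPM in TMEM43-S358L and 8.98, 11.13, 7.96 and 13.1 CPM in TMEM43-WT (log2 fold change -2.28 ± 0.39, SE, adjusted p = 0.00649, at most 0.0298 with a library left out). In NTG it was at 1.21 to 5.69 CPM. The annexin gene anxa13l went up, from 0.188 to 1.88 CPM in TMEM43-WT to 2.3 to 12.1 CPM in TMEM43-S358L (log2 fold change 2.704 ± 0.63, SE, adjusted p = 0.044). Its call held only without TMEM43-S358L replicate 4 or TMEM43-WT replicate 1 and was lost without any of the other 6 libraries (up to 0.145). The annexin gene anxa6 ranged widely, with 1.32 to 3.43 CPM in TMEM43-S358L, 15.9 to 90.9 CPM in TMEM43-WT and 312 to 561 CPM in NTG, and did not pass the test between the lines (adjusted p = 0.109). The gene cavin4b, whose product coats caveolae in muscle cells, was at 0, 0.112, 0.224 and 0.117 CPM in TMEM43-S358L and at 0.91, 4.74, 2.58 and 10.1 CPM in TMEM43-WT (log2 fold change -5.30 ± 0.86, SE, adjusted p = 0.00537, at most 0.0249 with a library left out). NTG libraries were at 0 to 0.138 CPM and TMEM43-P111L libraries at 0.148 to 0.714 CPM, so that TMEM43-WT was the highest group and its 5-month library the lowest of it.

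Over all 48 lists, 1866 distinct genes were tested and 26 were DEGs, 1.39% beside 1.62% of all genes tested.

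**Figure D3:**
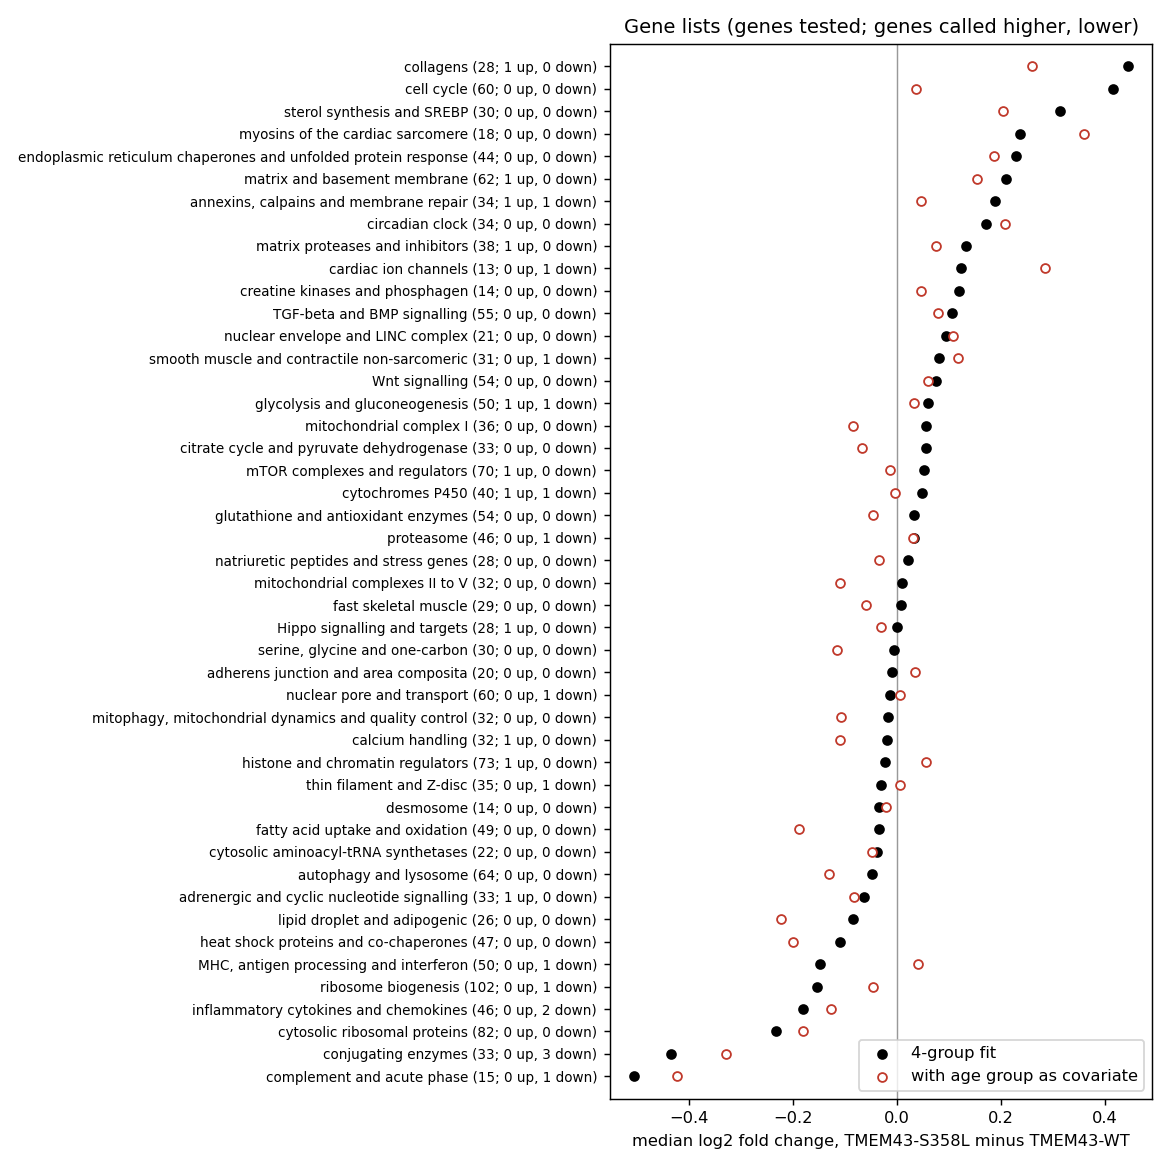
Median log2 fold change of gene lists with at least 10 tested genes (all but 1 of those lists), in the fit of 4 groups (black) and with age group as a covariate (open red), with the genes tested and called in brackets. Medians run from -0.505 for complement and acute phase genes to 0.444 for collagens, and the cell cycle list moves to 0.037 with age as a covariate.

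DEGs with gene names, no overlap of the groups and a mean of 5 CPM or more over the 8 libraries were ranked by their change. A gene that is high in a single line can reach that mean. Among the ranked genes the largest declines were found for olfml1, an olfactomedin-like gene, sult2st1, dmpk and capn1b. The gene dmpk, which encodes the kinase of the locus mutated in human myotonic dystrophy, was at 1.28, 4.17, 4.89 and 2.26 CPM in TMEM43-S358L and at 13.2, 18.8, 13.5 and 17.7 CPM in TMEM43-WT (log2 fold change -2.33 ± 0.44, SE, adjusted p = 0.0128). The level of olfml1 was 0.165, 0.819, 0.0448 and 1.56 CPM against 9.27, 14.1, 9.16 and 11.8 CPM (log2 fold change -4.07 ± 0.85, SE, adjusted p = 0.0301). NTG libraries held 2.65 to 4.03 CPM of dmpk and 0.733 to 7.22 CPM of olfml1. The small GTPase gene rab32a, whose product acts in the traffic of lysosome-related organelles, was at 1.44, 3.2, 2.2 and 3.27 CPM against 12.4, 10.3, 10.1 and 10.6 CPM (log2 fold change -2.10 ± 0.27, SE, adjusted p = 0.000716). The mitochondrial carrier gene slc25a51b, whose human ortholog imports NAD+ into mitochondria, was at 2.02 to 3.24 CPM against 5.69 to 16.7 CPM (adjusted p = 0.0115). The calcineurin regulator gene rcan3 was at 5.4 to 11 CPM against 14.8 to 44.9 CPM (adjusted p = 0.0137), and the diacylglycerol kinase gene dgkh at 2.76 to 8.45 CPM against 11.7 to 53.6 CPM (adjusted p = 0.0342).

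The largest increases by the same rule were found for ccl39.6, dpp6a, ccdc39 and rragd, among others. The chemokine gene ccl39.6 was at 8.82, 6.48, 11.9 and 10.2 CPM in TMEM43-S358L and at 2.05, 1.31, 1.06 and 1.01 CPM in TMEM43-WT, with NTG at 3.49 to 6.28 CPM (log2 fold change 2.79 ± 0.30, SE, adjusted p = 0.000149). The gene dpp6a, which encodes an auxiliary subunit of Kv4 potassium channels, was at 34.3, 12.8, 26.9 and 11.2 CPM against 4.72, 4.46, 2.9 and 1.18 CPM (log2 fold change 2.69 ± 0.54, SE, adjusted p = 0.0222). TMEM43-S358L was the highest of the 4 groups for dpp6a, since NTG libraries lay at 2.22 to 6.55 CPM and TMEM43-P111L libraries at 0.52 to 2.46 CPM. The gene ccdc39, whose product is needed to assemble the axoneme of motile cilia, was at 7.49 to 12.2 CPM against 0.563 to 2.56 CPM (adjusted p = 0.00254), with NTG at 7.49 to 14.8 CPM. A further 7 were mgat4b, tmem150ab, myo1hb, c17h14orf159, soul4, smpd5 and pcdh15a, with log2 fold changes between 1.56 and 1.997. Of these 7, soul4, of a family of heme-binding proteins, was at 6.73 to 9.6 CPM against 1.14 to 3.38 CPM (adjusted p = 0.0104), and c17h14orf159 at 42.3 to 87.5 CPM against 11.8 to 35.08 CPM (adjusted p = 0.0104).

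How firmly these calls stood differed from gene to gene. Among the 12 genes with the largest declines, dmpk, capn1b, sult2st2, actn2b, rab32a, abcc8 and slc25a51b were called whichever library was left out, and among those with the largest increases ccl39.6, ccdc39, rragd, c17h14orf159 and soul4. The call of rcan3 was lost only without TMEM43-S358L replicate 3 (adjusted p = 0.0539). That of olfml1 was lost without TMEM43-S358L replicate 1, 2 or 3 or TMEM43-WT replicate 4, 5 or 6 (up to 0.0886), that of dgkh without TMEM43-S358L replicate 1, 2 or 3 or TMEM43-WT replicate 4 or 6 (up to 0.102) and that of dpp6a without TMEM43-S358L replicate 1 or 3 or TMEM43-WT replicate 4, 5 or 6 (up to 0.081). The call of mgat4b was lost without TMEM43-S358L replicate 3 or TMEM43-WT replicate 1 or 5 (up to 0.066), that of pcdh15a without TMEM43-S358L replicate 3 or TMEM43-WT replicate 1, 4 or 5 (up to 0.0718) and that of myo1hb without TMEM43-S358L replicate 1, 2 or 4 or TMEM43-WT replicate 1, 4 or 6 (up to 0.115). That of smpd5 held only without TMEM43-S358L replicate 1 and that of tmem150ab only without TMEM43-S358L replicate 4 (up to 0.111 and 0.106 without the other libraries).

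**Figure D4:**
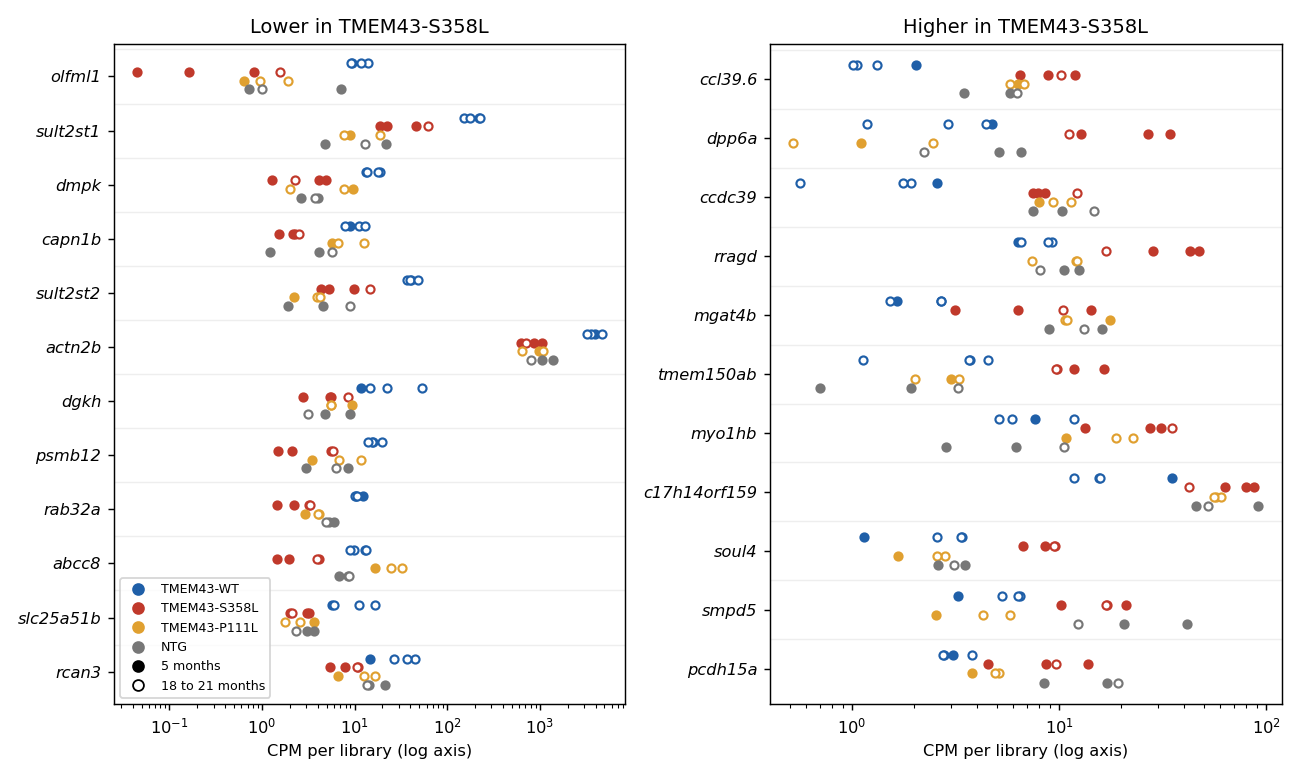
CPM (log axis) of the 12 DEGs with the largest declines and of 11 of the 12 with the largest increases, in all 14 libraries, colored by group and filled for 5 months. TMEM43-S358L and TMEM43-WT do not overlap for any gene shown, because the genes were chosen on that condition. For actn2b the NTG libraries lie at 803 to 1395 CPM, apart from the TMEM43-WT libraries.

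A group of DEGs was absent, or nearly so, from TMEM43-S358L or from TMEM43-WT. Of the 282 DEGs 15 had no count in any TMEM43-S358L library and 8 had none in any TMEM43-WT library, and a further 17 and 12 had 1 to 3 counts in total. A gene without counts in a line passed the filter on low counts through other libraries. The share of all tested genes with so few counts is not given here, so these numbers are a description only. The genes given here were named after their values were seen. A troponin T gene of the cardiac type, tnnt2d, was at 0.659, 0.782, 1.44 and 0.545 CPM in TMEM43-S358L and at 0 in TMEM43-WT, at least 23.6-fold lower there (adjusted p = 0.00605), while NTG libraries held 0.233 to 0.733 CPM. The gene fndc4b was at 0.783, 3.13, 2.65 and 6.27 CPM in TMEM43-S358L and at 0 in TMEM43-WT, at least 91.7-fold lower there (adjusted p = 0.0482), a call that was lost whichever library was left out (0.0545 to 0.111). In the other direction, st3gal1l, a sialyltransferase gene, was at 0 in TMEM43-S358L, NTG and TMEM43-P111L alike and at 0.512, 1.32, 2.26 and 2.89 CPM in TMEM43-WT, at least 60.6-fold higher than in TMEM43-S358L (adjusted p = 0.00858). Without TMEM43-WT replicate 4, 5 or 6 the gene st3gal1l gave no test. The gene ribc2, which encodes a protein of ciliary microtubules, had 1 count over all TMEM43-S358L libraries, at most 0.0397 CPM in the NTG and TMEM43-P111L libraries, and 3.92, 2.77, 5.2 and 2.1 CPM in TMEM43-WT (a ratio of 342, exact Poisson interval 60.8 to 13500). Detection of st3gal1l and ribc2 was thus nearly confined to TMEM43-WT. The zinc finger gene znf1156 was at 2.79, 9.48, 12.1 and 5.92 CPM in TMEM43-WT with 2 counts over all TMEM43-S358L libraries, and NTG libraries held 6.6, 0 and 4.23 CPM. The transporter gene abcb11a, related to the bile salt export pump, had 3 counts over all TMEM43-WT libraries, against 0.824, 1.94, 1.17 and 3.51 CPM in TMEM43-S358L and 0.586 to 2.7 CPM in NTG (adjusted p = 0.00343). These floors, set at 3 counts over the libraries of a group, and intervals cover counting error only.

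The DEGs were unevenly placed on the genome. In windows of 5 Mb with at least 10 tested genes, the share of DEGs was highest on chromosome 25 from 10000001 to 15000000, where 9 of 68 tested genes were called, or 13.2% beside 1.62% of all genes. Next came chromosome 22 from 30000001 to 35000000 with 4 of 39 (10.3%), chromosome 10 from 1 to 5000000 with 8 of 84 (9.52%), chromosome 2 from 5000001 to 10000000 with 6 of 69 (8.7%) and chromosome 14 from 15000001 to 20000000 with 3 of 39 (7.69%). With age group as a covariate the number was unchanged at 9 on chromosome 25 and 3 on chromosome 14, but it was 1 of 39 on chromosome 22, 5 of 84 on chromosome 10 and 5 of 69 on chromosome 2. These are the highest of 279 windows, of which 130 held no DEG, and were chosen for their share, so that the shares are a description. Genes in a window are neighbors, and members of a tandem family there share sequence.

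The chromosome 25 window held immune gene families. Its called genes in the order of the chromosome were si:ch211-147g22.4, LOC103909824, LOC108181672, mhc1lda, ccl39.9, LOC101884623, ccl39.7, ccl39.6 and ccl39.3, of which all but ccl39.6 were lower in TMEM43-S358L. The MHC class I gene mhc1lda was at 0 in all TMEM43-S358L libraries and at 3.92, 1.83, 1.93 and 2.35 CPM in TMEM43-WT, at least 80.6-fold higher (adjusted p = 0.0058). Within NTG it was at 0.779, 0 and 1.42 CPM, so that non-transgenic pools differed among themselves. The neighboring LOC108181672 behaved alike, with 0.165, 0, 0.0897 and 0.039 CPM in TMEM43-S358L, 40.7, 26, 52.7 and 41 CPM in TMEM43-WT and 28.9, 0 and 18.8 CPM in NTG (log2 fold change -9.04 ± 1.38, SE, adjusted p = 0.00717). LOC103909824 was at 0 to 0.0897 CPM against 0.798 to 1.52 CPM (adjusted p = 0.00208), and LOC101884623 had 2 counts over all TMEM43-S358L libraries against 0.42 to 1.03 CPM in TMEM43-WT (adjusted p = 0.00747). The chemokine genes ccl39.6 and ccl39.3 are neighbors in the table's chromosome order among the DEGs and had opposite signs. Reads of these genes were split with other features in part of the libraries, and how reads were divided between copies was not tested. DEGs of chromosome 25 were not confined to this window. Over the whole chromosome 24 of 533 tested genes were called (4.5%), the highest share of any chromosome. The windows on either side held 4 of 59 and 6 of 93. The DEGs olfml1, ribc2, cyp2x7, tnnt2d and abcc8 also lie on chromosome 25, outside the window.

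**Figure D5:**
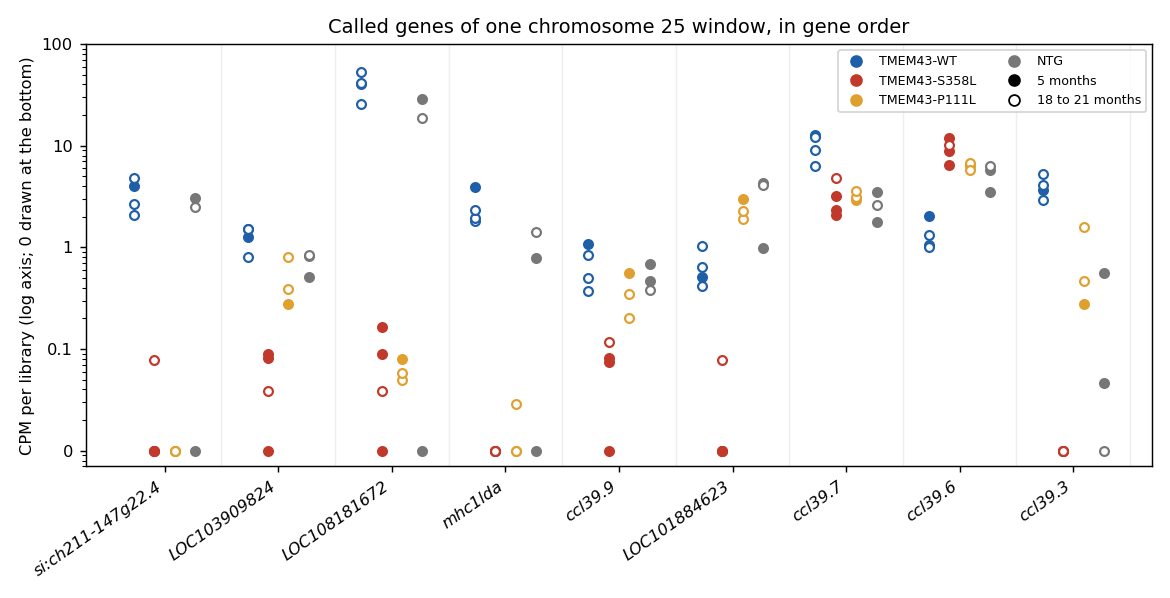
CPM per library (log axis, 0 drawn at the bottom) of the 9 DEGs of the chromosome 25 window, in gene order and evenly spaced. TMEM43-S358L libraries lie below TMEM43-WT for all but ccl39.6, where they lie at 6.48 to 11.9 CPM against 1.01 to 2.05 CPM.

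Each of the other windows described also held called genes of both signs. On chromosome 10, dmpk fell as given above, while ankrd34ba was at 2.27, 1.75, 3.41 and 3 CPM in TMEM43-S358L and 0, 0.141, 0.322 and 0.0839 CPM in TMEM43-WT (log2 fold change 4.16 ± 0.61, SE, adjusted p = 0.00246). Also on chromosome 10, erap1a, which encodes an aminopeptidase that trims peptides for MHC class I, was at 16.3 to 32.6 CPM against 9.78 to 12.4 CPM (adjusted p = 0.0157, lost without TMEM43-S358L replicate 3 or TMEM43-WT replicate 1 or 6, up to 0.0602). On chromosome 2, si:dkeyp-106c3.1 and the long non-coding RNA LOC101886800 were at 0 in all TMEM43-S358L libraries and at 2.05 to 6.58 CPM and 2.48 to 4.74 CPM in TMEM43-WT, at least 139-fold and 116-fold higher, whereas ccdc39 and anxa13l of the same window were higher in TMEM43-S358L. On chromosome 14, smtnl1, a smoothelin-like gene, was at 12.8, 22.2, 17.1 and 17.7 CPM against 50.1, 47.5, 35.7 and 43.1 CPM (log2 fold change -1.34 ± 0.24, SE, adjusted p = 0.00747), and wfs1b, which encodes wolframin of the endoplasmic reticulum, at 6.04 to 9.38 CPM against 11.2 to 18.9 CPM (adjusted p = 0.0431, called only without TMEM43-WT replicate 4 among the 8 fits that left out a library, up to 0.134). On chromosome 22, LOC101882639 was at 25.7 to 39.6 CPM against 11.4 to 18.9 CPM (adjusted p = 0.00781).

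Since the groups differ in age, the comparison was repeated with the age group of the labels as a covariate. This fit called 228 genes (1.31% of those tested), of which 184 were among the 282 and 44 were not, and 98 of the 282 were lost. None of the 282 DEGs had a called age effect in that fit, in which 169 of the 17437 genes tested had one. At that rate few or none would fall among the DEGs, so their absence says nothing on the part of age. Among the list members above, the calls of psmb12, lama5, col18a1b, adam12, amotl2b, hdac9b, pom121, lect2l and anxa13l were lost with the covariate, at adjusted p-values from 0.052 to 0.112. Of the genes with the largest changes, olfml1, dgkh, rcan3, dpp6a, smpd5 and tmem150ab also lost the call there. The calls of actn2b, cacna2d1a, abcc8, adcy7, rragd, pygma, il1b, capn1b and imp3 held. Within the 5-month libraries, 3 TMEM43-S358L against 1 TMEM43-WT, 37 genes were called (0.212% of those tested), 28 of them among the 282, and within the older libraries, 1 against 3, the number was 15 (0.086%), with 12 among the 282. Each of these fits has 1 library on a side, whose spread is taken to be that of the other groups. The sign of a DEG within an age follows from the groups not overlapping and is no further evidence.

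For actn2b the log2 fold change was -2.21 between the 5-month libraries and -2.42 between the older ones, for il1b -4.02 and -2.91, for cacna2d1a 1.35 and 1.04, for pygma 1.68 and 0.99, and for rragd 2.65 and 1.03. A test of the difference between these ages, the interaction of genotype and age, called no gene with edgeR (0% of those tested), also with RLE factors or a stricter filter. The smallest adjusted p was 0.991, and 729 genes (4.18%) had an unadjusted p under 0.05. The 6 genes with the smallest p were zgc:63694, znf644b, slc36a1, fzd3a, ppap2d and klf8. Of these klf8, a Krüppel-like factor, had a log2 fold change of -1.04 at 5 months and 0.86 at the older age, and ppap2d 1.61 and -0.68. In each of these 2 genes TMEM43-WT replicate 1 was the extreme of its group, at 50.4 CPM of klf8 against 18 to 23.2 CPM and at 4.83 CPM of ppap2d against 9.11 to 13.7 CPM.

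The other 2 groups give reference levels. By the mean of log2(CPM + 1), NTG lay nearer to TMEM43-S358L than to TMEM43-WT for 163 of the 282 DEGs (57.8%, beside 53% of all tested genes), and TMEM43-P111L for 158 (56%, beside 50.8%). The shares over the DEGs were thus near those over all tested genes. Both groups lay nearer to TMEM43-S358L for actn2b and adcy7, for example, and nearer to TMEM43-WT for il1b and rragd. Of the 3 libraries in each group, 2 of NTG and 1 of TMEM43-P111L were 5 months old. Nearness by genotype and by age cannot be told apart in these shares.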

How the data were processed

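RNA of pooled zebrafish ventricles was sequenced from a stranded mRNA library as single-end reads. Trimming by the authors used Cutadapt 2.5, alignment to GRCz11 used STAR 2.7.2b, and reads over exons were counted by featureCounts 1.6.4 (versions per the submitters' processing notes). The deposited table holds estimated counts per gene, not scaled, for 39289 features. Many values are fractions, so reads were split between features. Split reads also occur in genes where they are not mentioned above. Values of myoz2a, ugt2a6, erap1a, LOC101882639, znf1156 and ankrd34ba, for example, were fractions in most libraries. How strand and reads with several alignments were treated is not given in the sources used here, so values of overlapping, antisense and duplicated genes are uncertain.

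Counts were rounded, filtered with filterByExpr, scaled by TMM and fitted with edgeR 4.0.16 (robust quasi-likelihood test, R 4.3.3) over all 14 libraries in 4 groups, with Benjamini-Hochberg adjustment over 17437 genes. A gene was called when the adjusted p was below 0.05 and the log2 fold change was 0.05 or more in size. The SE was the log2 fold change over the square root of F. DESeq2 1.42.0, limma 3.58.1 (voom), other scalings and filters, age group (divided at 12 months), the replicate block and leaving out each library were alternatives. Code was tested on simulated data.

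Named genes were, among DEGs averaging 5 CPM or more whose groups did not overlap and that had a gene name, the 12 that rose and the 12 that fell most, up to 4 genes per list by p, up to 6 called genes in each of 5 windows, up to 6 genes of the age interaction, tmem43 and myl7. The further genes ccl39.7, ccl39.9, actn2a and those absent from a line were singled out once their values had been seen. The comparison and the lists were chosen with earlier results of these data known. Nothing states that pools of a group were separate clutches, so p-values measure the spread between these pools. The study's text gives an age of 5 months, and the ages used here are those of the labels. Some genes and 1 list that met these rules are not reported here.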

Additional observations from a re-analysis of the deposited data

Results flagged for a closer look

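Within a group of 4 libraries, values that stood far from the other 3 by Dixon's criterion were looked for among the named genes and the principal components, a criterion that chance meets in about 1 of 20 groups. Of 288 groups 19 met it, a share near that of chance. TMEM43-WT replicate 1, the 5-month library of its group, was the distant one most often. It had 35.08 CPM of c17h14orf159 against 11.78 to 15.69 CPM in the others, 4.435 CPM of the parvalbumin gene pvalb3 against 1.611 to 2.066 CPM, and 34.12 CPM of mmp9 against 3.776 to 7.887 CPM. It also had 40.26 CPM of mmp13a against 2.348 to 5.728 CPM, 50.44 CPM of klf8 against 17.98 to 23.2 CPM, and 1.478 CPM of LOC569920 against 0.9668 to 1.033 CPM. Its scores were -8.64 on PC1 against -14.24 to -13.76, and -20.13 on PC2 against 2.92 to 5.02. The gene klf8 had been chosen by the age interaction, which has this library as its only 5-month library of TMEM43-WT.

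Among the other TMEM43-WT libraries, replicate 6 had 10.87 CPM of tmem43 against 16.57 to 17.57 CPM, and replicate 4 had 1.033 CPM of LOC101883469 against 0.4604 to 0.5118 CPM. In TMEM43-S358L, replicate 2 had 3.313 CPM of mmp9 against 0.824 to 1.207 CPM. Replicate 4, the 19-month library, had 6.388 CPM of the fibrillin gene fbn2b against 13.68 to 15.08 CPM and 7.089 CPM of LOC103909634 against 19.28 to 21.05 CPM.

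The remaining distant values were 1 library with a few reads where the other 3 of its group had none. They were 0.0779 CPM each of cyp2x7 and LOC101884623 and 0.03895 CPM of ribc2 in TMEM43-S358L replicate 4, 0.03723 CPM of acmsd in TMEM43-S358L replicate 2, 0.1408 CPM of abcb11a in TMEM43-WT replicate 4, and 0.04604 CPM of tmem151ba in TMEM43-WT replicate 5.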

How the results depend on the processing

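The number of DEGs, 282, was 146 to 228 when 1 library was left out, and it was 280 with RLE factors, 290 with no filter, 224 with at least 1 CPM in 3 libraries, 315 from the 8 libraries alone and 229 with limma-voom. It moved further with DESeq2 (672), with features of whole counts only (99), at 5 months only (37), at 18 to 21 months only (15), and without the library of lowest TMM factor in each group, TMEM43-S358L replicate 3 and TMEM43-WT replicate 1 (114, an alternative chosen after seeing the data). With the replicate number as a block it was 14. Only numbers 1 and 4 occur in both groups, and the same-numbered libraries also share an age group. Their deviations correlated at 0.29 and 0.09. The labels do not say what the number stands for, and whether it marks a shared origin was not tested. The difference on PC1 was 26.53 to 29.25 with a library left out.

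With age group as a covariate 13 of the 48 list medians changed sign, among them complex I (0.056 to -0.085) and antigen processing and interferon genes (-0.149 to 0.041), and with RLE factors or DESeq2 none did. Among the named genes, signs turned in the 6 chosen for the age interaction, none of them a DEG. Their log2 fold changes in the main fit were 0.483 for znf644b, 0.335 for ppap2d, 0.373 for slc36a1 and 0.265 for zgc:63694. For fzd3a and klf8 they were -0.029 and -0.021, near no change. These genes were chosen for a difference between the ages, so a turn within an age follows from the choice. At 18 to 21 months the log2 fold change was -0.78 for znf644b, -0.68 for ppap2d, -1.19 for slc36a1, -0.84 for zgc:63694, 1.13 for fzd3a and 0.86 for klf8. Without the lowest-TMM libraries it was -0.17 for slc36a1, -0.17 for zgc:63694, 0.66 for fzd3a and 0.57 for klf8, and with limma-voom 0.17 for fzd3a and 0.065 for klf8. With 1 library left out it ran from -0.032 to 0.905 for slc36a1, from -0.125 to 0.554 for zgc:63694, from -0.288 to 0.543 for fzd3a and from -0.204 to 0.406 for klf8. The cause was not tested. Genes under about 1 CPM rest on few reads, and for them depth limits what can be told.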
